A study of Homo sapiens with 12 samples.

Results

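The 36 human SNARE genes described here, among them STX6, were found by symbol in the deposited gene table, which has 40825 rows. Each of the 36 symbols stood on 1 row. Of these genes, 35 passed the filter on low values and 1, STX19, did not. RNA had been sequenced from PLC/PRF/5 and Huh7, established lines grown from human hepatocellular carcinoma, kept with lenvatinib or with its solvent DMSO. The 12 libraries form 4 groups of 3, namely PLC/PRF/5 with lenvatinib, PLC/PRF/5 with DMSO, Huh7 with lenvatinib and Huh7 with DMSO. All 12 carry the genotype WT in the labels, so STX6 itself was not altered in any of them. Lenvatinib, a drug for liver cancer, blocks tyrosine kinase receptors such as those for VEGF and FGF, and the study asked how STX6 takes part in resistance to it. Neither its dose nor the time of exposure is given in the sources used here. The labels do not say whether replicates came from separate cultures. The p-values below therefore weigh differences against a spread between libraries that may be purely technical.

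SNARE proteins drive the fusion of membranes inside cells. A vesicle SNARE of the R class meets target SNAREs of the Qa, Qb and Qc classes, or a Qa SNARE with a Qbc protein of the SNAP family, and the helices zip into a bundle that pulls both membranes together. Each compartment uses its own set, and hepatocytes, which secrete plasma proteins and sort membrane to an apical and a basolateral surface, rely on several of them at once. Autophagy uses the same machinery when a closed autophagosome fuses with a lysosome.

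Total counts per library ran from 70236175 to 75820318. Mitochondrial transcripts held 11.0 to 11.3% of counts with lenvatinib and 10.3 to 10.6% with DMSO in PLC/PRF/5, and 6.33 to 6.88% with lenvatinib and 5.57 to 5.69% with DMSO in Huh7. Their part in the results below was not tested. The 11 markers of liver cells were all present. Their summed level was 5230 to 5530 CPM (counts scaled to a common library total) with lenvatinib and 7620 to 8270 CPM with DMSO in PLC/PRF/5. In Huh7 it was 6090 to 8260 CPM with lenvatinib and 6100 to 6880 CPM with DMSO. Sums of markers, here and below, are CPM without TMM factors, while the levels of single SNARE genes below are CPM with TMM factors. ALB, the serum albumin gene, was low in PLC/PRF/5, with 669 to 874 counts with lenvatinib and 502 to 547 counts with DMSO. Huh7 had 213702 to 306249 ALB counts with lenvatinib and 155172 to 172782 with DMSO. ALB thus stood higher with lenvatinib in both lines, unlike the marker sum in PLC/PRF/5. Markers of other cells summed to far less than those of liver cells. Blood cell markers summed to 1.71 to 8.2 CPM and endothelial markers to 3.82 to 10.5 CPM over the 12 libraries. Fibroblast and stellate markers summed to 5.33 to 52.9 CPM and neuron markers to 47.5 to 110 CPM.

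The transcripts were compared per length by the deposited FPKM, leaving out STX6, whose FPKM do not follow its counts. VAMP8, the R-SNARE of late endosomes and lysosomes, was highest in all 4 groups, at 72.2 ± 5.59 FPKM in PLC/PRF/5 with lenvatinib and 95.4 ± 5.36 FPKM in PLC/PRF/5 with DMSO, and at 80.1 ± 4.23 FPKM in Huh7 with lenvatinib and 102 ± 1.27 FPKM in Huh7 with DMSO (SD, n = 3 each). YKT6, a lipid-anchored R-SNARE, had 61.5 ± 1.06 and 60.6 ± 1.59 FPKM in PLC/PRF/5 with lenvatinib and with DMSO, and 43.3 ± 0.990 and 44.9 ± 0.850 FPKM in the same order in Huh7. VAMP3 of recycling endosomes lay between 45.5 and 52.1 FPKM in group means. VAMP3 and YKT6 changed places between the lines, with YKT6 above VAMP3 in PLC/PRF/5 and below it in Huh7. The lowest tested genes were SNAP25 and STX11 in Huh7, at 0.365 and 0.0748 FPKM with lenvatinib and 0.751 and 0.0709 FPKM with DMSO. STX19, a Qa-SNARE of the plasma membrane class, had 0 counts in all 6 PLC/PRF/5 libraries, where a count of 0 allows up to 3 counts per library. It had 14, 36 and 17 counts with lenvatinib and 8, 2 and 4 counts with DMSO in Huh7, and it did not pass the filter on low values. In the fit without that filter STX19 passed only as lower in PLC/PRF/5 than in Huh7 under lenvatinib (edgeR adjusted p = 0.0135), and no fold is given against libraries at 0.

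**Figure D1:**
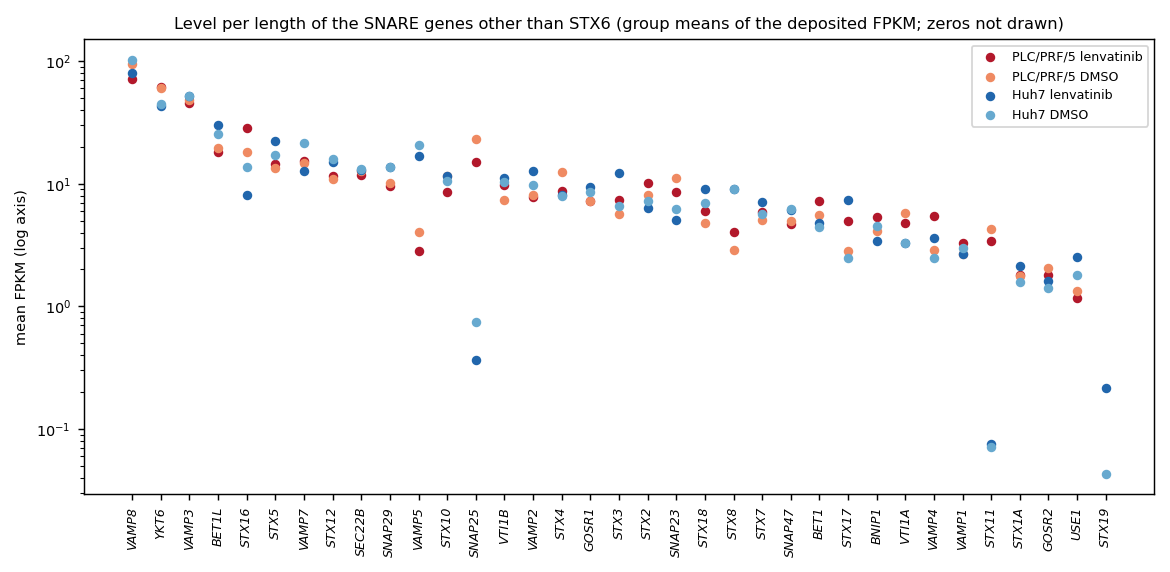
Level per length of the 35 SNARE genes other than STX6, as group means of the deposited FPKM on a log axis, ordered by their mean over the groups. Points are the 4 groups, and values of 0 (STX19 in PLC/PRF/5) are not drawn. VAMP8, YKT6 and VAMP3 lead in every group, and SNAP25, STX11 and VAMP5 differ most between the lines.

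STX6 is the Qc-SNARE of the trans-Golgi network and early endosomes. It lies on the minus strand of chromosome 1, at 180972712 to 181023121 in GENCODE 29 on GRCh38, which is not the hg19 build of the submitters. Its promoter is shown because STX6 is the gene the study is about, and those of VAMP4, STX3, VAMP8 and STX4 because these genes, besides SNAP25, carry the lenvatinib results below. Each run is the 250 bases before the RefSeq start on GRCh38.p14, 5′ to 3′ on the gene's strand, and capitals mark a motif.
STX6, chr1:181022871-181023120, minus strand: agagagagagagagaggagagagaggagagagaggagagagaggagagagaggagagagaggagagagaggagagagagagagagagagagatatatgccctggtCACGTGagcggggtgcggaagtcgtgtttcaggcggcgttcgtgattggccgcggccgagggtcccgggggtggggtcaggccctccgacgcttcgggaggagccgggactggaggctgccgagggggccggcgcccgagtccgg
VAMP4, chr1:171742066-171742315, minus strand: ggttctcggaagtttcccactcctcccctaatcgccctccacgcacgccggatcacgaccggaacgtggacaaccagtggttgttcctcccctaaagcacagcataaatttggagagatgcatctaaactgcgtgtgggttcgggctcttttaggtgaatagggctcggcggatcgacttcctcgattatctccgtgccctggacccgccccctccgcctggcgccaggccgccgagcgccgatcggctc
STX3, chr11:59755126-59755375, plus strand: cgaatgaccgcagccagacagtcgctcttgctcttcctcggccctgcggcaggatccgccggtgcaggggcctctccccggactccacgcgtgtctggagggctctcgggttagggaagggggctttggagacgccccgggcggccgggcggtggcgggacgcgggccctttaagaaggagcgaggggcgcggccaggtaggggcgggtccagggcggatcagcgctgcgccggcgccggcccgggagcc
VAMP8, chr2:85577336-85577585, plus strand: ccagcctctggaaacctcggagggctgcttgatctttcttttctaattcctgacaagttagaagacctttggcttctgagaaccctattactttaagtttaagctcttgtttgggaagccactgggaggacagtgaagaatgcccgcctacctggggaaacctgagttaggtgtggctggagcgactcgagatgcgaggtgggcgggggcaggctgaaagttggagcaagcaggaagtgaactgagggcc
STX4, chr16:31032845-31033094, plus strand: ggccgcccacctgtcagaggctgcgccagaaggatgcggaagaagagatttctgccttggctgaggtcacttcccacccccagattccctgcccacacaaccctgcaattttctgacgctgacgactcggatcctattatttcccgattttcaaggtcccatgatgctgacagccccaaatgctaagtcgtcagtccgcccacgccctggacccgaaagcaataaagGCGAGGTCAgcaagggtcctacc
All 5 RefSeq starts lie inside the GENCODE gene, and the runs of STX6, STX3 and VAMP8 lie wholly inside it. Searched on both strands were 5 motifs. The E-box CACGTG, bound by TFEB and MYC, stood 145 bases before the STX6 start, and the antioxidant response element TGACNNNGC stood on the other strand 23 bases before the STX4 start. The other 3 runs held none of the 5 motifs, and no run held more than 1. Of the 36 genes, 32 had a RefSeq promoter, and CACGTG was in 5 of the 32 (STX6, BNIP1, STX2, GOSR2 and SNAP29), which is 15.6%, against 6.49% of all 27305 promoters. TGACNNNGC was in 5 members (VAMP3, STX11, STX5, VAMP1 and STX4) and in 11.0% of all promoters. The ETS core CCGGAAG was in 5 members and 8.82% of all promoters, the CRE TGACGTCA in STX12 and 1.77%, and the AP-1 site TGANTCA in SEC22B and 6.60%. A match of letters is a description and no evidence of binding.

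STX6 did not pass the test in any comparison. In PLC/PRF/5 its level was 81.9, 84.9 and 28.9 CPM with lenvatinib and 75.9, 18 and 78.6 CPM with DMSO. In Huh7 it was 51.1, 53.0 and 44.4 CPM with lenvatinib and 54.2, 46.7 and 50.7 CPM with DMSO. The lenvatinib and DMSO ranges overlapped in both lines, and in PLC/PRF/5 1 library of each group lay far below the other 2, namely replicate 3 with lenvatinib and replicate 2 with DMSO. Changes are given below as log2 fold changes ± standard error from edgeR's quasi-likelihood test over all 12 libraries, with Benjamini-Hochberg adjusted p over 15587 genes and a threshold of 0.05. STX6 was at 0.18 ± 0.50 in PLC/PRF/5 (adjusted p = 0.852) and at -0.03 ± 0.50 in Huh7 (adjusted p = 0.985), and the difference of these changes was 0.21 ± 0.70 (adjusted p = 0.901). An exact two-sided permutation test gave p = 0.5 in PLC/PRF/5 and p = 0.8 in Huh7, where 3 libraries against 3 can give no less than 0.1.

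The STX6 intervals, each fitted on the libraries of 1 line alone, differed in width between the lines. The 95% interval from limma-voom was -1.31 to 1.92 for the lenvatinib change in PLC/PRF/5, so a change of more than 2-fold either way was not excluded there. In Huh7 the interval was -0.26 to 0.20. The edgeR standard error above, from a spread shared by all 12 libraries, was 0.50 in Huh7 as well. The direction in PLC/PRF/5 rested on single libraries, with -0.24 (adjusted p = 0.719) without DMSO replicate 2, -0.0157 (adjusted p = 0.996) without lenvatinib replicate 1 and -0.0536 (adjusted p = 0.970) without lenvatinib replicate 2. In Huh7 the sign turned to 0.0251 without DMSO replicate 1 and to 0.0440 without lenvatinib replicate 3. Both low PLC/PRF/5 libraries had ordinary totals. Among 9608 genes with a mean of at least 1000 counts in the other 4 PLC/PRF/5 libraries, STX6 was the only 1 (0.0104%) with both of these libraries under 0.5 times the lowest other library, a pattern looked for after its values were seen. Both libraries were the lowest 2 of the 6 for 299 genes (3.11%). STX16 was among these, at 57.2 CPM in lenvatinib replicate 3 and 50.8 CPM in DMSO replicate 2. Its other PLC/PRF/5 libraries lay at 108 to 225 CPM. An exon of STX6 overlaps AL162431.2 on the same strand.

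STX16 (Qa), VTI1A (Qb) and VAMP4 (R) form the trans-Golgi complex with STX6, and STX10 is its close paralog. VAMP4 rose in both lines and VTI1A and STX10 fell in PLC/PRF/5, while STX16 did not pass. Neither of these falls passed the test of its difference between the lines in the fit over all libraries. VAMP4 was at 29.1, 27.3 and 35.7 CPM with lenvatinib and 13.3, 19.7 and 18.6 CPM with DMSO in PLC/PRF/5. In Huh7 it was at 20.9, 21.6 and 21.6 CPM with lenvatinib and 15.1, 14.3 and 15.1 CPM with DMSO. All lenvatinib libraries lay above all DMSO libraries of their line, and the changes were 0.84 ± 0.15 in PLC/PRF/5 (edgeR adjusted p = 0.00286) and 0.53 ± 0.15 in Huh7 (adjusted p = 0.0230). The Huh7 call was lost without any one of DMSO replicates 1, 2 and 3 or lenvatinib replicates 2 and 3, at 0.50 to 0.54 with adjusted p = 0.0529 to 0.0704. It held with only the groups compared (0.53, edgeR adjusted p = 0.00768). The VAMP4 changes did not pass a test of their difference between the lines (0.31 ± 0.21, adjusted p = 0.372).

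VTI1A was at 48.2, 42.4 and 46.6 CPM with lenvatinib and 58.2, 58.2 and 57.2 CPM with DMSO in PLC/PRF/5, with no overlap. The change was -0.34 ± 0.07 (edgeR adjusted p = 0.00937). In Huh7 VTI1A was at 32.8, 30.0 and 34.3 CPM with lenvatinib and 32.7, 35.5 and 32.1 CPM with DMSO, which overlapped (-0.05 ± 0.07, adjusted p = 0.716). The difference of the VTI1A changes did not pass with edgeR (-0.29 ± 0.11, adjusted p = 0.0933) and passed with DESeq2 (-0.31, adjusted p = 0.0449). STX10, which takes part in the return of mannose 6-phosphate receptors to the Golgi, was at 14.3, 22.0 and 15.8 CPM with lenvatinib and 27.5, 26.1 and 21.6 CPM with DMSO in PLC/PRF/5, where the highest lenvatinib library passed the lowest DMSO library. Its change was -0.53 ± 0.16 (adjusted p = 0.0357). The STX10 call was lost in 5 fits that left out 1 library (PLC/PRF/5 DMSO replicate 1 or 2, PLC/PRF/5 lenvatinib replicate 1 or 3, or Huh7 DMSO replicate 2), at -0.53 to -0.41 with adjusted p = 0.0503 to 0.117, and also by library totals alone (-0.45, adjusted p = 0.0611), without the filter (-0.51, adjusted p = 0.0534) and with only the groups compared (-0.51, adjusted p = 0.0854). In Huh7 STX10 was at 23.4, 25.2 and 24.6 CPM with lenvatinib and 20.8, 23.3 and 24.6 CPM with DMSO, and did not pass (0.09 ± 0.16, adjusted p = 0.742). The difference of the STX10 changes did not pass with edgeR (-0.62 ± 0.22, adjusted p = 0.0900). It passed with DESeq2 (-0.63, adjusted p = 0.0418) and without PLC/PRF/5 lenvatinib replicate 2 (-0.82, adjusted p = 0.0125).

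STX16 varied most within its groups. It was at 217, 225 and 57.2 CPM with lenvatinib and 108, 50.8 and 173 CPM with DMSO in PLC/PRF/5, and at 37.5, 78.5 and 31.2 CPM with lenvatinib and 119, 102 and 33.0 CPM with DMSO in Huh7. Every pair of groups overlapped, and the changes were 0.59 ± 0.64 in PLC/PRF/5 (edgeR adjusted p = 0.585) and -0.79 ± 0.65 in Huh7 (adjusted p = 0.434). The readthrough gene STX16-NPEPL1, which shares exons with STX16, held 23 to 334 counts, against 2242 to 17244 counts for STX16.

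**Figure D2:**
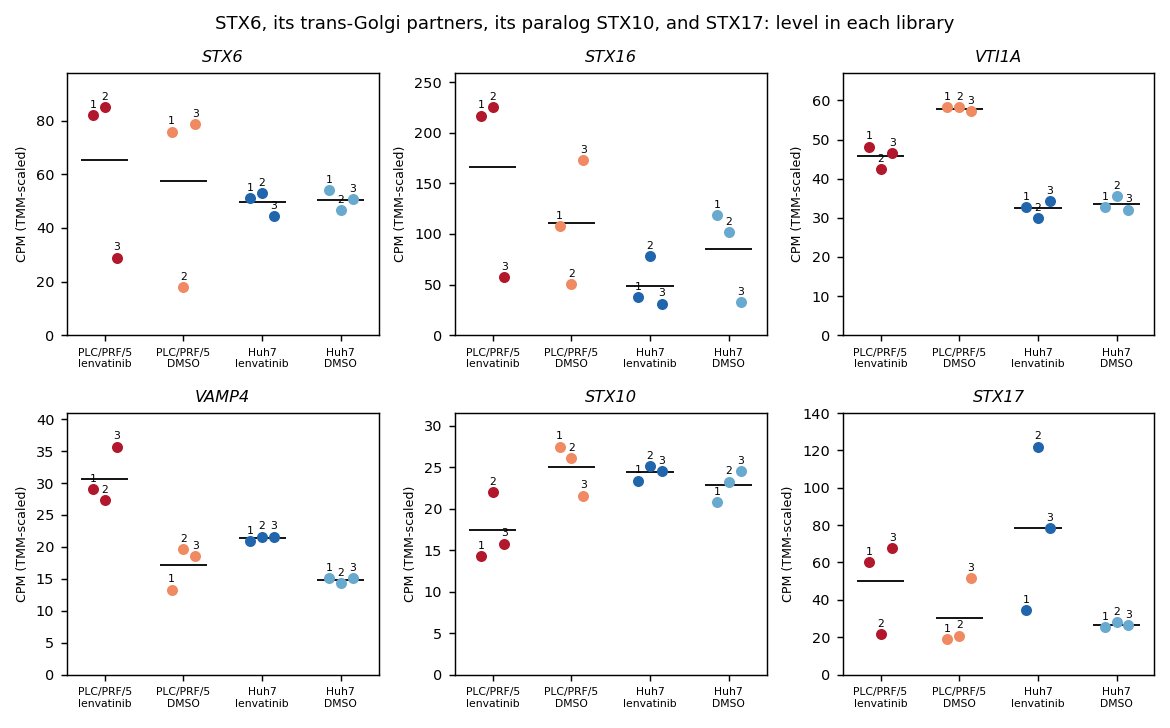
TMM-scaled CPM in each library for STX6, its partners STX16, VTI1A and VAMP4, its paralog STX10, and STX17. Points are libraries labelled with their replicate number and lines are group means. STX6 has 1 low library in each PLC/PRF/5 group, STX16 and STX17 scatter within groups, and VAMP4 is higher with lenvatinib in both lines.

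With lenvatinib 4 of the 35 tested SNARE genes were higher and 7 lower in PLC/PRF/5. These 11 are 31.4% of the members, where 20.1% of all genes tested were called (9.01% higher and 11.1% lower). The split of the calls in PLC/PRF/5 moved with the scaling, since by library totals alone 6 members were higher and 5 lower. STX2 and STX7 then joined the higher calls and STX10 and VAMP3 left the lower ones. No member called under both scalings changed direction. Of all genes, 2070 were then higher and 1209 lower, against 1405 and 1728 with TMM scaling in edgeR. In Huh7 3 were higher and 3 lower, which is 17.1% of the members, against 24.7% of all genes (11.4% higher and 13.3% lower). The median log2 fold change of the members was -0.06 in PLC/PRF/5 and -0.01 in Huh7, against -0.00748 and 0.00179 over all genes. Called in both lines, in the same direction in each, were 4 genes, with VAMP4 and STX3 higher and VAMP8 and SNAP25 lower. They are 36.4% of those called in PLC/PRF/5 and 66.7% of those called in Huh7. The share of all genes called in both lines was not computed. In bulk RNA a lower level can come from fewer cells with the transcript or less of it per cell, and these cannot be told apart.

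**Figure D3:**
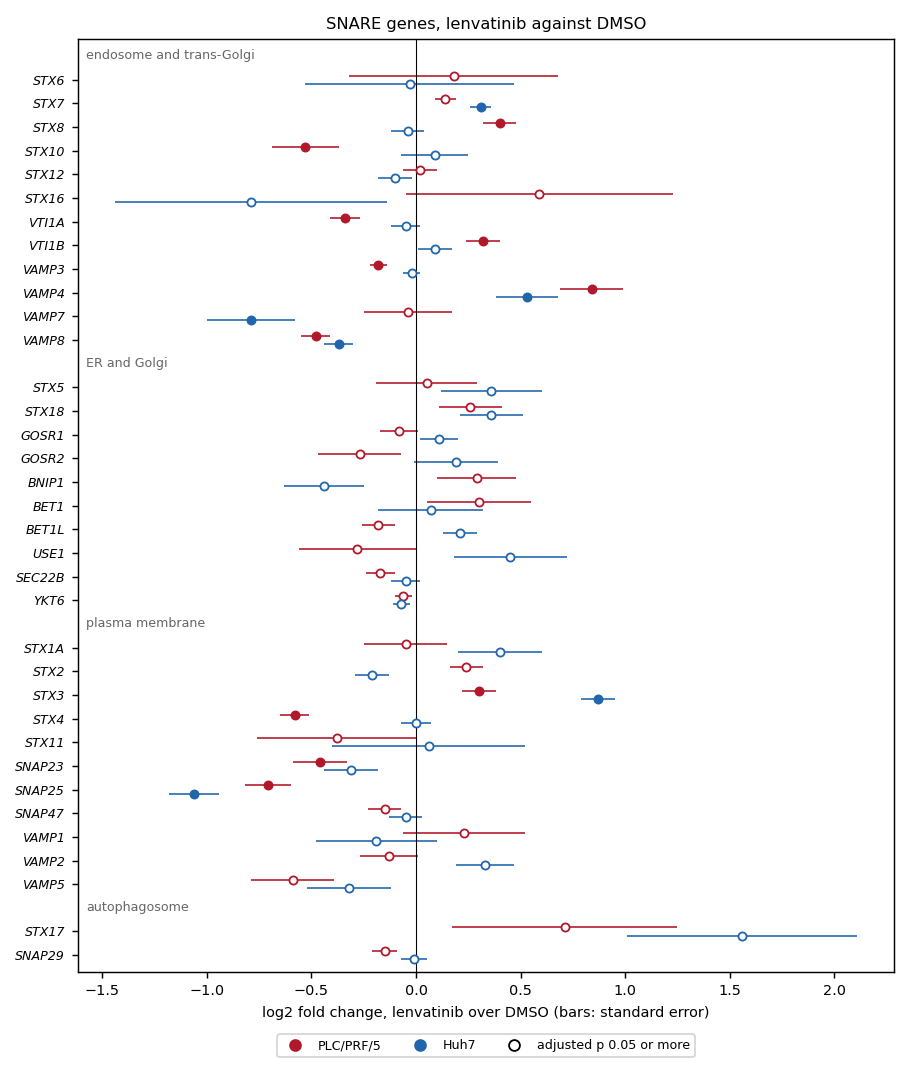
Log2 fold change of lenvatinib over DMSO for the 35 tested SNARE genes in PLC/PRF/5 and Huh7, by compartment, with bars for 1 standard error from edgeR. Filled points passed adjusted p of 0.05. VAMP4 and STX3 are higher and VAMP8 and SNAP25 lower in both lines, and none of the 10 ER and Golgi genes passed in either. Of all genes tested, 20.1% passed in PLC/PRF/5 and 24.7% in Huh7.

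Among the 12 SNARE genes of endosomes and the trans-Golgi network, 3 rose and 4 fell in PLC/PRF/5, and 2 rose and 2 fell in Huh7. That is 58.3% of them in PLC/PRF/5 and 33.3% in Huh7, where 20.1% and 24.7% of all genes were called. VAMP8, which also serves the fusion of autophagosomes with lysosomes, was at 76.2, 67 and 76.2 CPM with lenvatinib and 105, 95.6 and 106 CPM with DMSO in PLC/PRF/5. In Huh7 VAMP8 was at 89.2, 85.3 and 79.4 CPM with lenvatinib and 108, 110 and 110 CPM with DMSO. No lenvatinib library reached the lowest DMSO library of its line, and VAMP8 fell by 0.48 ± 0.07 on the log2 scale in PLC/PRF/5 (edgeR adjusted p = 0.000914) and by 0.37 ± 0.07 in Huh7 (adjusted p = 0.00267). Both VAMP8 calls held under all 21 other settings.

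STX7, STX8 and VTI1B are the Q-SNAREs that pair with VAMP7 or VAMP8 on late endosomes. STX7 (Qa) was at 112, 104 and 110 CPM with lenvatinib and 97.7, 98.3 and 99.5 CPM with DMSO in PLC/PRF/5, and at 142, 135 and 133 CPM with lenvatinib and 109, 110 and 113 CPM with DMSO in Huh7. The groups did not overlap in either line, and STX7 passed in Huh7 (0.31 ± 0.05, edgeR adjusted p = 0.000753) but not in PLC/PRF/5 (0.14 ± 0.05, adjusted p = 0.0515). In PLC/PRF/5 STX7 passed without Huh7 lenvatinib replicate 3 (0.14, adjusted p = 0.0492), without PLC/PRF/5 lenvatinib replicate 2 (0.18, adjusted p = 0.0393), with DESeq2 (0.14, adjusted p = 0.0270) and by library totals alone (0.22, adjusted p = 0.00805). The test of the difference did not pass (-0.16 ± 0.07, adjusted p = 0.130). STX8 (Qc) rose in PLC/PRF/5, at 16.1, 15.5 and 15.8 CPM with lenvatinib and 11.4, 12 and 12.6 CPM with DMSO, a change of 0.40 ± 0.08 without overlap (adjusted p = 0.00746). In Huh7 STX8 overlapped, at 37.5, 39.4 and 33.3 CPM with lenvatinib and 39.3, 36.1 and 37.9 CPM with DMSO (-0.04 ± 0.08, adjusted p = 0.791). VTI1B (Qb) rose by 0.32 ± 0.08 in PLC/PRF/5 (adjusted p = 0.0141), a call lost without lenvatinib replicate 1 (0.28, adjusted p = 0.0526) or replicate 2 (0.27, adjusted p = 0.0523), and was at 0.09 ± 0.08 in Huh7 (adjusted p = 0.469). The difference of the VTI1B changes did not pass (0.23 ± 0.11, adjusted p = 0.184), except without PLC/PRF/5 lenvatinib replicate 3 (0.31, adjusted p = 0.0449). Exons of VTI1B overlap ARG2 on the other strand, and the strand setting of the counting is not given in the sources used here.

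VAMP7, the R-SNARE of late endosomes and lysosomes, was at 41.7, 34.8 and 40.1 CPM with lenvatinib and 52.9, 51.7 and 97.2 CPM with DMSO in Huh7. The groups did not overlap, and DMSO replicate 3 stood well above the other 2. VAMP7 fell by 0.79 ± 0.21 in Huh7 (edgeR adjusted p = 0.0178), and by 0.43 without DMSO replicate 3 (adjusted p = 0.00956). The call was lost without lenvatinib replicate 2 (-0.72, adjusted p = 0.0649) and with only the groups compared (-0.79, adjusted p = 0.0902). In PLC/PRF/5 VAMP7 was at 46.1, 42.7 and 46.2 CPM with lenvatinib and 44.4, 49.4 and 45.2 CPM with DMSO (-0.04 ± 0.21, adjusted p = 0.924). The difference of the VAMP7 changes between the lines did not pass (0.75 ± 0.29, adjusted p = 0.118). VAMP7 lies in the pseudoautosomal region of X and Y, where reads fit both copies. VAMP3 fell by 0.18 ± 0.04 in PLC/PRF/5 (adjusted p = 0.0101), a small change that was lost by library totals alone (-0.0990, adjusted p = 0.116), without the filter (-0.16, adjusted p = 0.0905) and with only the groups compared (-0.16, adjusted p = 0.0589). STX12, a Qa-SNARE of recycling endosomes, did not pass in PLC/PRF/5 (0.02 ± 0.08, adjusted p = 0.932) or in Huh7 (-0.10 ± 0.08, adjusted p = 0.444).

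At the plasma membrane, with 11 tested SNARE genes, PLC/PRF/5 had 1 call higher and 3 lower with lenvatinib, and Huh7 had 1 higher and 1 lower. That is 36.4% in PLC/PRF/5 and 18.2% in Huh7, against the same 20.1% and 24.7% of all genes. STX3, the Qa-SNARE of the apical surface, on chromosome 11 at 59713456 to 59805882, was at 110, 94.8 and 113 CPM with lenvatinib and 56.5, 60.3 and 56.7 CPM with DMSO in Huh7. In PLC/PRF/5 STX3 was at 59.0, 61.3 and 62.6 CPM with lenvatinib and 52.8, 46.2 and 50.0 CPM with DMSO. Every lenvatinib library lay above every DMSO library of its line. STX3 rose by 0.87 ± 0.08 in Huh7, a fold of 1.83 (edgeR adjusted p = 1.77e-05), and by 0.30 ± 0.08 in PLC/PRF/5 (adjusted p = 0.0205). The PLC/PRF/5 call was lost without DMSO replicate 2 or 3 or lenvatinib replicate 2 or 3, at 0.25 to 0.30 with adjusted p = 0.0504 to 0.0715. Exons of STX3 overlap OR10V1 on the other strand and the pseudogene OR10Y1P on the same strand.

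STX4, the Qa-SNARE of the basolateral surface, on chromosome 16 at 31032889 to 31042975, was at 43.7, 38.4 and 39.3 CPM with lenvatinib and 61.3, 62.1 and 58.1 CPM with DMSO in PLC/PRF/5. It was at 40.6, 37.5 and 37.9 CPM with lenvatinib and 37.4, 38.6 and 40.4 CPM with DMSO in Huh7. In PLC/PRF/5 the groups stood apart, and with lenvatinib STX4 lay within or close to its Huh7 range. STX4 fell by 0.58 ± 0.07 in PLC/PRF/5 (edgeR adjusted p = 0.000377), a call held under all 21 other settings, and was at -0.00 ± 0.07 in Huh7 (adjusted p = 0.984), with a 95% interval of -0.16 to 0.15 from limma-voom.

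SNAP25, the Qbc-SNARE of neurons and endocrine cells, on chromosome 20 at 10218830 to 10307418, was at 53.8, 58.8 and 59.5 CPM with lenvatinib and 89.0, 99.3 and 92.9 CPM with DMSO in PLC/PRF/5. In Huh7 it was at 1.38, 1.28 and 1.71 CPM with lenvatinib and 3.05, 3.38 and 2.72 CPM with DMSO, from 95 to 247 counts per library. The groups did not overlap in either line although the level differed strongly between them. SNAP25 fell by 0.71 ± 0.11 in PLC/PRF/5 (edgeR adjusted p = 0.00116) and by 1.06 ± 0.12 in Huh7 (adjusted p = 9.69e-05), and both calls held under all 21 other settings. The 7 neuron markers summed to 57.0 to 58.4 CPM with lenvatinib and 90.9 to 110 CPM with DMSO in PLC/PRF/5, and to 47.5 to 66.3 CPM with lenvatinib and 51.3 to 62.5 CPM with DMSO in Huh7. SYP made up most of the PLC/PRF/5 sum, with 2998 to 3299 counts with lenvatinib and 5122 to 6487 counts with DMSO. RBFOX3 and MAP2 stood higher with lenvatinib in PLC/PRF/5, RBFOX3 with 187, 110 and 161 counts against 74, 65 and 82 with DMSO. MAP2 had 95, 52 and 94 counts against 29, 21 and 28 with DMSO. SYN1 and SYT1 stood lower there, SYN1 with 120, 85 and 27 counts against 410, 287 and 357 with DMSO. SYT1 had 818, 792 and 681 counts against 984, 1165 and 1026, and NEFL overlapped. In Huh7 SYP had 843, 1001 and 710 counts with lenvatinib against 1371, 1396 and 1768 with DMSO, while the MAP2 ranges overlapped. NEFM was at 0 in all PLC/PRF/5 libraries and SYN1 at 0 in all Huh7 libraries, and a link of these markers to the SNAP25 result was not tested.

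SNAP23, the widely expressed relative of SNAP25, was at 55.3, 55.5 and 58.6 CPM with lenvatinib and 78.2, 77.7 and 77.5 CPM with DMSO in PLC/PRF/5. These groups did not overlap, and SNAP23 fell by 0.46 ± 0.13 (edgeR adjusted p = 0.0274). Leaving out any one of the 6 PLC/PRF/5 libraries ended the call, at -0.49 to -0.45 with adjusted p = 0.0578 to 0.0773. The call held with only the groups compared, and the 95% interval from limma-voom on these groups was -0.57 to -0.33. In Huh7 SNAP23 was at 33.7, 43.2 and 29.4 CPM with lenvatinib and 41.1, 50.3 and 40.3 CPM with DMSO (-0.31 ± 0.13, adjusted p = 0.110), and it passed only without lenvatinib replicate 2 (-0.47, adjusted p = 0.00935). The difference of the SNAP23 changes between the lines did not pass (-0.15 ± 0.18, adjusted p = 0.647). Exons of SNAP23 overlap LRRC57 on the other strand. The other plasma membrane genes, STX1A, STX2, STX11, SNAP47, VAMP1, VAMP2 and VAMP5, did not pass in either line in the fit over all libraries. STX2 was at 0.24 ± 0.08 in PLC/PRF/5 (adjusted p = 0.0585), and passed there without PLC/PRF/5 lenvatinib replicate 1 (0.30, adjusted p = 0.0411) or Huh7 lenvatinib replicate 2 (0.24, adjusted p = 0.0499). STX2 also passed with DESeq2 (0.24, adjusted p = 0.0350), with limma-voom (0.24, adjusted p = 0.0471) and by library totals alone (0.32, adjusted p = 0.0153). VAMP5 was at -0.59 ± 0.20 in PLC/PRF/5 (adjusted p = 0.0673), and passed without PLC/PRF/5 lenvatinib replicate 1 (-0.83, adjusted p = 0.0163) and with DESeq2 (-0.59, adjusted p = 0.0304). VAMP2 was at 0.33 ± 0.14 in Huh7 (adjusted p = 0.113), and passed without PLC/PRF/5 DMSO replicate 3 (0.34, adjusted p = 0.0222) and with only the groups compared (0.33, adjusted p = 0.0450).

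**Figure D4:**
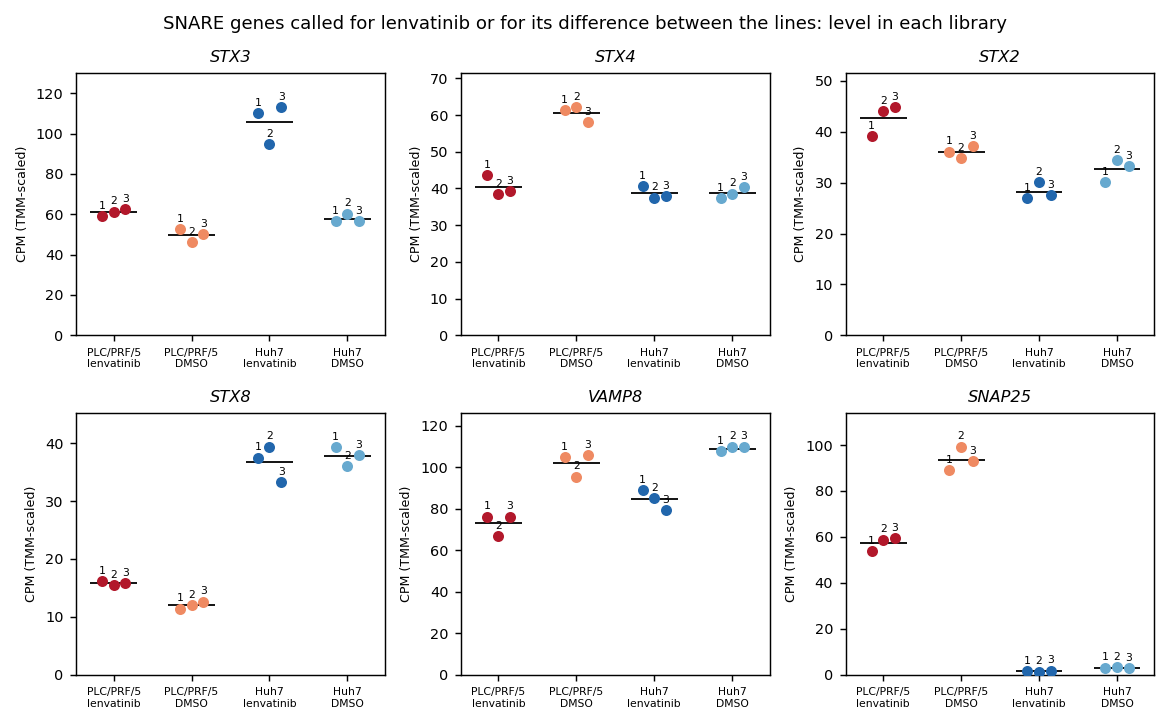
TMM-scaled CPM in each library for 6 SNARE genes called for lenvatinib in at least 1 line or for its difference between the lines. Points are libraries labelled with their replicate number and lines are group means. STX3 is highest in Huh7 with lenvatinib at 94.8 to 113 CPM, STX4 is highest in PLC/PRF/5 with DMSO at 58.1 to 62.1 CPM, and SNAP25 is under 4 CPM in every Huh7 library.

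The 10 SNARE genes of the ER and Golgi, STX5, STX18, GOSR1, GOSR2, BNIP1, BET1, BET1L, USE1, SEC22B and YKT6, held no call for lenvatinib in PLC/PRF/5 or in Huh7 with edgeR. Of all genes tested, 20.1% were called in PLC/PRF/5 and 24.7% in Huh7, and the 10 were not tested as a set. At an unadjusted p under 0.05 there were 1 (SEC22B) in PLC/PRF/5 and 3 (BET1L, BNIP1 and STX18) in Huh7, and DESeq2 and limma-voom called 0 in each line. Single libraries mattered in Huh7, where STX18, a Qa-SNARE for traffic back to the ER, was called at 0.56 without DMSO replicate 3 (adjusted p = 0.00760) and BNIP1 at -0.65 without lenvatinib replicate 3 (adjusted p = 0.0245). In the fit over all libraries STX18 was at 0.36 ± 0.15 (adjusted p = 0.105) and BNIP1 at -0.44 ± 0.19 (adjusted p = 0.127). YKT6 had the narrowest standard error of the 10, with -0.06 ± 0.04 in PLC/PRF/5 and -0.07 ± 0.04 in Huh7 (adjusted p = 0.325 and 0.206).

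STX17 (Qa) and SNAP29 (Qbc) form the autophagosomal SNARE complex with VAMP8. STX17 was at 34.7, 122 and 78.4 CPM with lenvatinib and 25.5, 28.1 and 26.3 CPM with DMSO in Huh7, and at 60.3, 21.6 and 67.9 CPM with lenvatinib and 18.9, 20.8 and 51.6 CPM with DMSO in PLC/PRF/5. The Huh7 groups did not overlap and those of PLC/PRF/5 did, with wide scatter in both lenvatinib groups. STX17 passed in neither line, with 0.71 ± 0.54 in PLC/PRF/5 (edgeR adjusted p = 0.405) and 1.56 ± 0.55 in Huh7 (adjusted p = 0.0632). In Huh7 it was called in 4 of 21 other settings, where adjusted p ran from 0.0221 to 0.224 and the log2 fold change from 1.09 to 1.91. These were DESeq2 (1.57, adjusted p = 0.0221) and the fits without Huh7 lenvatinib replicate 1 (1.91, adjusted p = 0.0297), PLC/PRF/5 DMSO replicate 3 (1.56, adjusted p = 0.0426) or PLC/PRF/5 lenvatinib replicate 2 (1.56, adjusted p = 0.0416). SNAP29 did not pass although its PLC/PRF/5 groups did not overlap. It was at 54.3, 52.8 and 54.0 CPM with lenvatinib and 63.2, 59.4 and 56.5 CPM with DMSO in PLC/PRF/5 (-0.15 ± 0.06, adjusted p = 0.110), and at 82.9, 78.5 and 77.0 CPM with lenvatinib and 81.1, 75.6 and 84.1 CPM with DMSO in Huh7 (-0.01 ± 0.06, adjusted p = 0.907).

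The lenvatinib change itself differed between PLC/PRF/5 and Huh7 for 4 of the 35 genes (2 higher and 2 lower), 11.4% against 14.4% of all genes tested (7.49% higher and 6.9% lower). The plasma membrane syntaxins STX3 and STX4 changed lower in PLC/PRF/5 than in Huh7, each by -0.58, with standard errors of 0.11 and 0.10 (edgeR adjusted p = 0.00507 and 0.00296). Both held under all 20 other settings. STX2, another Qa-SNARE of the plasma membrane, was at 39.2, 44.1 and 44.8 CPM with lenvatinib and 36.1, 34.9 and 37.2 CPM with DMSO in PLC/PRF/5, and at 26.9, 30.1 and 27.5 CPM with lenvatinib and 30.1, 34.4 and 33.3 CPM with DMSO in Huh7. Its lenvatinib libraries stood above DMSO in PLC/PRF/5 and at or below it in Huh7, and the difference was 0.45 ± 0.12 (adjusted p = 0.0235). That call was lost without PLC/PRF/5 lenvatinib replicate 2 or 3, PLC/PRF/5 DMSO replicate 2, Huh7 lenvatinib replicate 1 or Huh7 DMSO replicate 2 or 3, at 0.41 to 0.44 with adjusted p = 0.0533 to 0.0598. STX8 differed by 0.44 ± 0.12 (adjusted p = 0.0309). The STX8 call was lost in 9 of 12 fits without 1 library, those without any PLC/PRF/5 lenvatinib replicate, PLC/PRF/5 DMSO replicate 1 or 2, or replicate 1 or 3 of either Huh7 group, at 0.37 to 0.45 with adjusted p = 0.0505 to 0.0753. It was also lost without the filter (0.46, adjusted p = 0.0713).

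More SNARE genes were called between PLC/PRF/5 and Huh7 than for lenvatinib, in libraries that the lenvatinib comparisons also use. Under DMSO 7 genes were higher and 13 lower in PLC/PRF/5, 57.1% of the members against 66.9% of all genes tested (33.9% higher and 33.1% lower). Under lenvatinib 9 were higher and 18 lower, 77.1% against 66.9% of all genes (34.5% higher and 32.3% lower). In both, in the same direction, were 17 genes (5 higher and 12 lower), which are 85.0% of those called under DMSO and 63.0% of those called under lenvatinib, in libraries that the other comparison did not use. How many of all genes were called in both media was not computed, and 66.9% of all genes were called in each. The median log2 fold change of the members was -0.25 under lenvatinib and -0.10 under DMSO, against 0.0195 and 0.00664 over all genes.

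STX11, a Qa-SNARE known from the secretory granules of cytotoxic lymphocytes, and SNAP25 were, of the 35 tested members, those furthest above Huh7. STX11 was at 28.2, 26.8 and 28.8 CPM in PLC/PRF/5 and 0.838, 0.424 and 0.161 CPM in Huh7 under DMSO, the Huh7 values resting on 58, 31 and 12 counts. Under lenvatinib it was at 17.8, 23.3 and 23.0 CPM in PLC/PRF/5 and 0.398, 0.716 and 0.362 CPM in Huh7. No library of one line came near the other, and the differences were 5.88 ± 0.49 under DMSO (edgeR adjusted p = 1.28e-06) and 5.44 ± 0.48 under lenvatinib (adjusted p = 2.13e-06). The blood cell markers, which could go with STX11, summed to 1.71 to 4.19 CPM in PLC/PRF/5 with DMSO and 6.20 to 6.71 CPM in Huh7 with DMSO, and PTPRC had 0 to 19 counts in PLC/PRF/5. SNAP25 was higher by 4.94 ± 0.13 under DMSO (adjusted p = 1.69e-10) and 5.29 ± 0.13 under lenvatinib (adjusted p = 1.77e-10), with its libraries given above.

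VAMP5, an R-SNARE known from muscle, and STX8 were, of the 35 tested members, those furthest below Huh7 in both media. VAMP5 was at 3.44, 4.67 and 3.45 CPM in PLC/PRF/5 and 19.8, 19.8 and 18.9 CPM in Huh7 under DMSO, a difference of -2.34 ± 0.21 (edgeR adjusted p = 1.88e-06). Under lenvatinib VAMP5 was at 3.36, 2.29 and 2.03 CPM in PLC/PRF/5 and 15.8, 13.3 and 17.8 CPM in Huh7 (-2.61 ± 0.21, adjusted p = 9.12e-07). No PLC/PRF/5 library reached a Huh7 library. STX8, whose libraries are given above, was lower by 1.65 ± 0.09 in log2 under DMSO (-1.65, adjusted p = 2.47e-08) and by 1.22 ± 0.08 under lenvatinib (-1.22, adjusted p = 2.48e-07). USE1, a Qc-SNARE of traffic to the ER, passed under lenvatinib, with 3.53, 2.64 and 3.48 CPM in PLC/PRF/5 and 7.87, 4.88 and 9.02 CPM in Huh7 (-1.17 ± 0.28, adjusted p = 0.00304). Under DMSO its ranges overlapped, at 3.02, 3.95 and 4.76 CPM in PLC/PRF/5 and 4.08, 6.39 and 5.42 CPM in Huh7 (-0.44 ± 0.27, adjusted p = 0.183).

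Of STX6 and its partners, VTI1A was higher in PLC/PRF/5 under DMSO (0.79 ± 0.07, edgeR adjusted p = 2.96e-06) and under lenvatinib (0.50 ± 0.07, adjusted p = 0.000120). STX6 did not pass under DMSO (0.19 ± 0.50, adjusted p = 0.759) or lenvatinib (0.40 ± 0.50, adjusted p = 0.502), with 95% intervals from limma-voom of -1.33 to 1.20 and -0.73 to 1.21. VAMP4 was higher under lenvatinib (0.52 ± 0.15, adjusted p = 0.00807) and did not pass under DMSO (0.21 ± 0.15, adjusted p = 0.218) unless PLC/PRF/5 DMSO replicate 1 was left out (0.36, adjusted p = 0.0217). STX10 was lower under lenvatinib (-0.49 ± 0.16, adjusted p = 0.0167), a call lost without PLC/PRF/5 lenvatinib replicate 1 (-0.37, adjusted p = 0.0654) or 3 (-0.42, adjusted p = 0.0603), and did not pass under DMSO (0.13 ± 0.16, adjusted p = 0.483). STX16 passed under lenvatinib (1.76 ± 0.66, adjusted p = 0.0363) although the lowest PLC/PRF/5 library, at 57.2 CPM, lay below the highest Huh7 library, at 78.5 CPM. That call was lost without replicate 1 or 2 of PLC/PRF/5 with lenvatinib or replicate 1 or 3 of Huh7 with lenvatinib, at 1.48 to 1.60 with adjusted p = 0.0969 to 0.113, and also with limma-voom (1.64, adjusted p = 0.0612) and without the filter (1.79, adjusted p = 0.110). Under DMSO STX16 was at 0.39 ± 0.64 (adjusted p = 0.620).

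The 4 Qbc genes were all called in both media, SNAP23 and SNAP25 higher and SNAP29 and SNAP47 lower in PLC/PRF/5. Of all genes tested, 66.9% were called in each medium. SNAP23 was higher by 0.83 ± 0.13 under DMSO (edgeR adjusted p = 0.000153) and 0.67 ± 0.13 under lenvatinib (adjusted p = 0.000714), beside SNAP25. SNAP29 was at -0.43 ± 0.06 under DMSO and -0.57 ± 0.06 under lenvatinib, and SNAP47 at -0.33 ± 0.08 and -0.43 ± 0.08. YKT6 was also higher in both, at 0.43 ± 0.04 under DMSO and 0.45 ± 0.04 under lenvatinib. Lower in both were, with the DMSO value and then the lenvatinib value, STX12 (-0.56 and -0.44), STX18 (-0.54 and -0.64), VTI1B (-0.51 and -0.28), BET1L (-0.39 and -0.78), GOSR1 (-0.24 and -0.43), STX3 (-0.22 and -0.80), STX7 (-0.16 and -0.33) and VAMP3 (-0.10 and -0.25). These calls, from SNAP29 on, had an edgeR adjusted p from 1.66e-06 to 0.0410.

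Some line differences were called in 1 medium. Under DMSO STX4 was higher in PLC/PRF/5 (0.64 ± 0.07, edgeR adjusted p = 8.97e-06) and under lenvatinib it did not pass (0.07 ± 0.07, adjusted p = 0.425). The Golgi SNARE GOSR2 was higher under DMSO (0.54 ± 0.20, adjusted p = 0.0335), where PLC/PRF/5 had 32.1, 48.2 and 25.8 CPM and Huh7 had 24.7, 26.8 and 21.5 CPM, with overlap. VAMP7 was lower under DMSO (-0.54 ± 0.21, adjusted p = 0.0386), with the high Huh7 library described above. Under lenvatinib alone STX2 (0.60 ± 0.08) and BNIP1 (0.59 ± 0.19) were higher, and VAMP2 (-0.75 ± 0.14), STX5 (-0.68 ± 0.24), VAMP8 (-0.21 ± 0.07) and SEC22B (-0.19 ± 0.07) were lower, with adjusted p from 5.55e-05 to 0.0401. Of these genes, STX4 and STX2 passed the test that the line difference changed with lenvatinib, in the fit over all libraries. Under DMSO STX5 passed without PLC/PRF/5 DMSO replicate 1 (-0.71, adjusted p = 0.00906) and VAMP2 without PLC/PRF/5 DMSO replicate 2 (-0.43, adjusted p = 0.0228).

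Several line calls rested on single libraries. Under DMSO the GOSR2 difference was 0.24 without PLC/PRF/5 replicate 2 (edgeR adjusted p = 0.186), 0.54 without Huh7 replicate 1 (adjusted p = 0.0729) and 0.45 without Huh7 replicate 3 (adjusted p = 0.115). VAMP7 was at -0.19 without Huh7 DMSO replicate 3 (adjusted p = 0.104), and its call was also lost without any PLC/PRF/5 DMSO replicate, PLC/PRF/5 lenvatinib replicate 1 or 3, or Huh7 lenvatinib replicate 3 (-0.60 to -0.52, adjusted p = 0.0508 to 0.0901). STX18 was at -0.35 without Huh7 DMSO replicate 3 and still passed (adjusted p = 0.0193). GOSR1 was lost without Huh7 DMSO replicate 3 (-0.24, adjusted p = 0.0592) or PLC/PRF/5 DMSO replicate 1 (-0.22, adjusted p = 0.0703), and STX3 without replicate 2 of PLC/PRF/5 DMSO (-0.18, adjusted p = 0.0795) or of Huh7 DMSO (-0.20, adjusted p = 0.0704). VAMP3 was lost without replicate 2 or 3 of either DMSO group, PLC/PRF/5 lenvatinib replicate 2 or Huh7 lenvatinib replicate 1 (adjusted p = 0.0530 to 0.0776).

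Under lenvatinib the call of BNIP1 was lost without PLC/PRF/5 lenvatinib replicate 1 (0.53, edgeR adjusted p = 0.0557) or Huh7 lenvatinib replicate 1 (0.49, adjusted p = 0.0667) or 2 (0.48, adjusted p = 0.0711). STX5 was lost without PLC/PRF/5 lenvatinib replicate 2 or 3 or Huh7 lenvatinib replicate 1 or 3 (-0.70 to -0.52, adjusted p = 0.0614 to 0.108). SEC22B was lost without replicate 2 or 3 of PLC/PRF/5 lenvatinib or replicate 1 or 2 of Huh7 lenvatinib (-0.20 to -0.13, adjusted p = 0.0548 to 0.129). VAMP8 was lost without PLC/PRF/5 lenvatinib replicate 2 (-0.15, adjusted p = 0.0755) or Huh7 lenvatinib replicate 1 (-0.17, adjusted p = 0.0734).

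**Figure D5:**
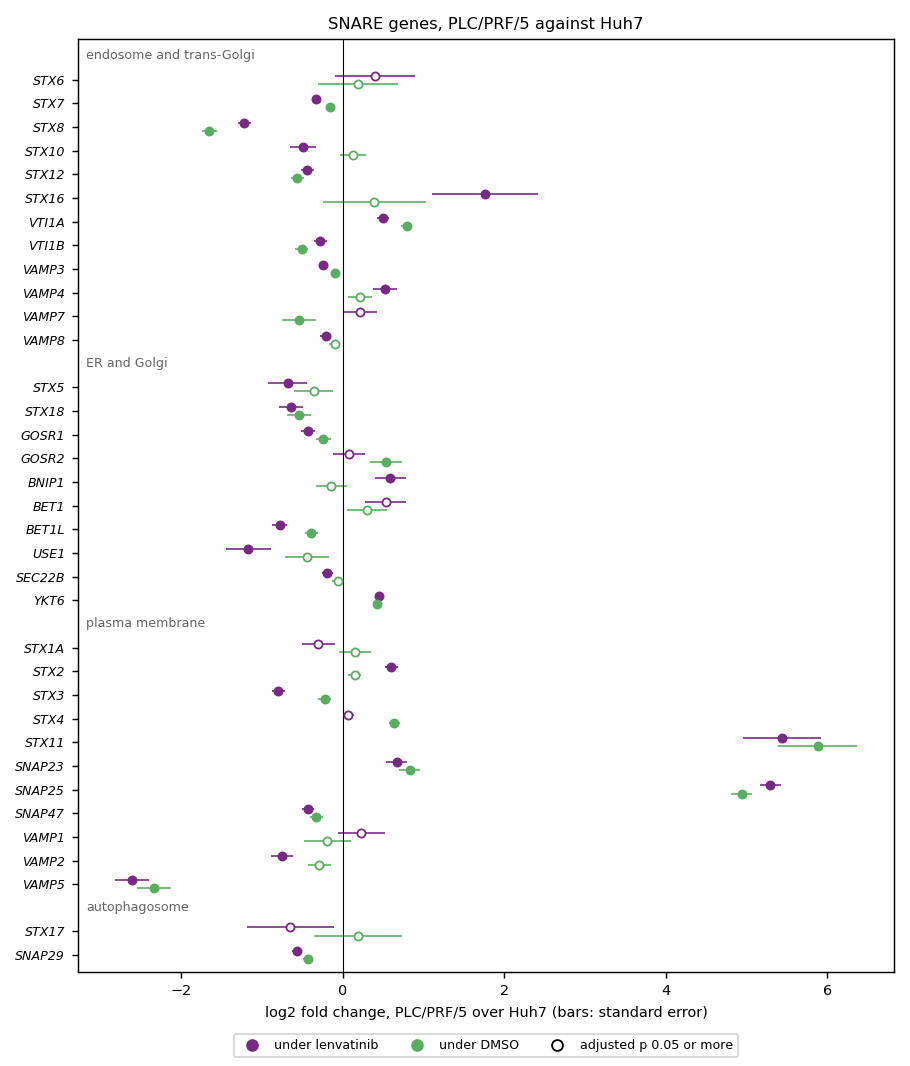
Log2 fold change of PLC/PRF/5 over Huh7 for the 35 tested SNARE genes under lenvatinib and under DMSO, by compartment, with bars for 1 standard error from edgeR. Filled points passed adjusted p of 0.05. STX11 and SNAP25 are higher in PLC/PRF/5 by 4.94 to 5.88, VAMP5 and STX8 are lower, and STX6 did not pass in either medium.

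Replicates of a group differed by more than 2-fold for 6 of the 35 genes (17.1%), against 21.7% of all genes tested, counting groups with at least 100 counts in all. With a mean of at least 1000 counts the shares were 4 of 29 members (13.8%) and 9.80% of all genes. STX16 did so in all 4 groups, by 2.45- to 3.91-fold. STX17 did so in both PLC/PRF/5 groups and in Huh7 with lenvatinib, by 2.74- to 3.46-fold, and STX6 in PLC/PRF/5 with lenvatinib (2.93-fold) and with DMSO (4.37-fold). BET1 (2.21-fold) and STX11 (5.21-fold) did so in Huh7 with DMSO, and VAMP1 (2.40-fold) in Huh7 with lenvatinib. The biological coefficients of variation of STX6, STX16 and STX17 were 0.418, 0.531 and 0.447, at the 89.1, 93.2 and 90.5 percentile of all genes tested, whose median was 0.152. By contrast YKT6, VAMP3 and STX7 had 0.0640, 0.0648 and 0.0694.

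Genes that work with SNAREs were read from the same fit, as 92 genes in 11 lists, of which 74 were tested. With lenvatinib 13 of the 74 rose and 8 fell in PLC/PRF/5, which is 28.4% against 20.1% of all genes tested. In Huh7 12 rose and 7 fell, which is 25.7% against 24.7% of all genes. Their median log2 fold change was 0.0109 in PLC/PRF/5 and 0.0602 in Huh7. Among the Sec1/Munc18 proteins, which hold syntaxins in place for fusion, STXBP2, the partner of STX3 and STX11, fell in PLC/PRF/5 (-0.34 ± 0.07, edgeR adjusted p = 0.00558). VPS33B rose in PLC/PRF/5 (1.18 ± 0.35, adjusted p = 0.0403) and fell in Huh7 (-1.10 ± 0.35, adjusted p = 0.0457), a difference that passed its test (2.27 ± 0.50, adjusted p = 0.0127).

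Tethers that catch vesicles before SNAREs engage gave calls in both directions. Of all genes tested, 20.1% were called with lenvatinib in PLC/PRF/5 and 24.7% in Huh7, and no list was tested as a set. Of the 5 genes of the GARP and EARP tethers, which GARP uses with STX6 at the trans-Golgi, VPS53 fell in PLC/PRF/5 (-0.41 ± 0.07, edgeR adjusted p = 0.00240) and VPS54 fell in Huh7 (-0.70 ± 0.11, adjusted p = 0.000873). Both changes differed between the lines (-0.44 ± 0.10 and 0.80 ± 0.15, adjusted p = 0.0130 and 0.00573). Of the 8 genes of the COG tether of the Golgi, 3 rose and none fell in PLC/PRF/5, where COG2 was at 0.47 ± 0.07, and COG2 also rose in Huh7 (0.27 ± 0.07). Of the 8 genes of the HOPS and CORVET tethers of late and early endosomes, VPS8 and VPS39 rose in both lines, at 0.49 ± 0.08 and 0.30 ± 0.08 in PLC/PRF/5 and 0.46 ± 0.08 and 0.35 ± 0.08 in Huh7. VPS18 of the same list fell in PLC/PRF/5 (-0.31 ± 0.06) and rose in Huh7 (0.40 ± 0.06), and this difference passed (-0.71 ± 0.09, adjusted p = 0.000542). NBAS, of the tether that works with STX18, rose in PLC/PRF/5 (0.55 ± 0.06) and in Huh7 (0.34 ± 0.06). Among synaptotagmins, the calcium sensors of fusion, SYT7 rose in Huh7 (1.11 ± 0.17, adjusted p = 0.000942) and its change was lower in PLC/PRF/5 (-1.13 ± 0.25, adjusted p = 0.0114).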

How the data were processed

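The 36 members, their compartments and the lists of partner genes were chosen with earlier results of these data known. Per the labels, libraries made from fragmented mRNA with random primers were sequenced from 1 end for 50 bases. HISAT2 and hg19 come from the submitters' processing notes. For the program that counted reads, its annotation and its strand setting, nothing is given in the sources used here. The deposited table holds, per the file headers, the authors' read count and the authors' FPKM per library, which were used for levels and the filter. A further 12 columns, from a cell line outside these groups, were left unused. FPKM were not used for STX6.

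Genes averaging 0.5 FPKM or more were kept, STX6 by a mean CPM of at least 1, and these 15587 were tested on the deposited counts with the quasi-likelihood F test of edgeR, with TMM scaling, robust fitting and 1 coefficient for each of the 4 groups, and Benjamini-Hochberg adjustment at 0.05. There were 5 comparisons: the lenvatinib change in PLC/PRF/5 and in Huh7, their difference, and PLC/PRF/5 against Huh7 in each medium. A standard error is the size of the log2 fold change divided by the root of its F. STX6 was also compared by exact permutation of CPM. Intervals of 95% are limma-voom's, fitted on the groups compared. At 100 counts the counting error alone is 10%. The fit was tested on simulated data. Named are STX6, its partners and paralog, every member called, and members whose replicates differed over 2-fold. The pattern of low STX6 libraries and the settings that called STX17 and other uncalled genes were looked at after the values were seen. Positions and exon overlaps are from GENCODE 29 (GRCh38), and 17 members share an exon with another gene. Another scaling, filter, tool, robust setting, choice of libraries or replicate block, and leaving out each library, made 21 other settings (20 for the difference). The fits used edgeR 4.0.16, DESeq2 1.42.0 and limma 3.58.1 in R 4.3.3. Tables and figures used pandas 2.3.3, matplotlib 3.10.9, scipy 1.17.1 and numpy 2.4.6 in Python 3.11.15.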

Additional observations from a re-analysis of the deposited data

Results flagged for a closer look

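For 4 SNARE genes the lenvatinib change in PLC/PRF/5 differed from that in Huh7 by an interaction contrast in edgeR over the 12 libraries, with adjusted p over all genes tested. STX4 differed by -0.58 ± 0.10 (adjusted p = 0.00296), with a change of -0.58 in PLC/PRF/5 and -0.00 in Huh7. STX3 differed by -0.58 ± 0.11 (adjusted p = 0.00507), with 0.30 in PLC/PRF/5 and 0.87 in Huh7. STX2 differed by 0.45 ± 0.12 (adjusted p = 0.0235), with 0.24 in PLC/PRF/5 and -0.21 in Huh7, neither of which passed alone. STX8 differed by 0.44 ± 0.12 (adjusted p = 0.0309), with 0.40 in PLC/PRF/5 and -0.04 in Huh7. Of 20 other settings, all kept the STX3 and STX4 calls, while 14 kept that of STX2 and 9 that of STX8.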

How the results depend on the processing

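Of the called members, those kept under every other setting were 6 of 11 for lenvatinib in PLC/PRF/5, 4 of 6 in Huh7, 2 of 4 for the difference, 15 of 20 for the lines under DMSO and 21 of 27 under lenvatinib. Counts of called members moved by over 1.5 times only for the difference, with 8 by DESeq2 (adding BET1L, STX10, VAMP3 and VTI1A) and 2 to 6 with 1 library left out. The low end of 2 came without Huh7 DMSO replicate 3, Huh7 lenvatinib replicate 1 or PLC/PRF/5 DMSO replicate 2, and the cause was not tested.

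Signs turned for values that did not pass. STX6 in PLC/PRF/5 against Huh7 under DMSO was -0.0677 with limma-voom and -0.11 to 0.6 with 1 library left out. With 1 library left out STX6 ran from -0.24 to 0.54 for lenvatinib in PLC/PRF/5, -0.0814 to 0.044 in Huh7 and -0.21 to 0.57 for the difference. VTI1A ran from -0.0908 to 0.00692 for lenvatinib in Huh7, and STX16 from -0.0986 to 0.72 for the lines under DMSO.

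A replicate block gave 11 called members in PLC/PRF/5, 6 in Huh7, 3 for the difference (losing STX8, 0.44, adjusted p = 0.0614), 18 for the lines under DMSO (losing VAMP3 and VAMP7) and 27 under lenvatinib (losing STX16, 1.68, adjusted p = 0.0537, and gaining BET1, 0.55, adjusted p = 0.0388). Residual correlations between same-numbered libraries, over all genes tested, ran from -0.035 to 0.0494. Libraries of different numbers were not compared in this way, and whether replicate numbers pair the samples for some genes was not tested. Low counts limit STX19, and STX11 and SNAP25 in Huh7. The scatter of STX6, STX16 and STX17 limits what can be said of them at this number of libraries.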
